A study of Mus musculus with 3 samples.

Results

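Oxidative phosphorylation takes place in the inner membrane of mitochondria, where electrons pass from complex I or complex II to complex III and on to complex IV, and where complex V, the ATP synthase, uses the proton gradient built by complexes I, III and IV to make ATP. A few subunits are encoded by the mitochondrial genome, and all others are nuclear genes whose products are imported. In lymphnodes these genes are used by every cell type, and naive lymphocytes rely on the pathway for most of their ATP. The nuclear-encoded subunits were taken by gene symbol from both deposited tables, as those that start with Nduf, Uqcr, Cox4 to Cox8 or Atp5 or are Sdha, Sdhb, Sdhc or Sdhd, with pseudogenes named -ps left out. This gave 92 genes of 48568 symbols, in 93 entries, since Uqcrc1 has a second entry at 0 on an alternate scaffold.

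Whole popliteal lymphnodes were taken from untreated C57Bl/6 mice aged 5 months. There were 3 libraries, from wildtype females (a pool of 6 mice), SryHi males (a pool of 3 mice) and wildtype males (a pool of 6 mice). SryHi males are the XY-Sry+ males of the FCG mouse model, in which Sry is deleted from the Y chromosome and carried as a multi-copy autosomal transgene that is overexpressed. Each group was 1 library, so no value has a replicate, a standard deviation or a test between groups, and every difference below is a difference between libraries. Both comparisons share the wildtype male library. Levels are FPKM, the authors' fragment number per kilobase of transcript, scaled to the mapped fragments of the library, and a ratio is log2 of (FPKM + 1) in females or SryHi males over (FPKM + 1) in wildtype males.

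The labels were checked first. Xist, the RNA that silences an X chromosome, was at 395 FPKM in the female library, against 0.139 in the SryHi male and 0.233 in the wildtype male library, and Sry was at 20.8 FPKM in the SryHi male library and listed at 0 in the female and wildtype male libraries. The leukocyte gene Ptprc was at 776, 665 and 619 FPKM in the female, SryHi male and wildtype male libraries, and the T cell gene Cd3e was at 53.8, 36.9 and 53.3 FPKM. From the most common low value in transcripts of 3000 to 8000 nt, the libraries held about 6.0e+06, 5.3e+06 and 6.0e+06 fragments, in the same order. There 1 fragment was worth about 0.168, 0.188 and 0.168 FPKM times kb. In transcripts of 340 to 380 nt it was worth 0.335, 0.299 and 0.266, which gives lower numbers, with the female library lowest. The depths and their order are thus uncertain. A pair of immunoglobulin joining segments, Ighj1 and Ighj4, made up 72.6% of all FPKM in females, 35.4% in SryHi males and 75.8% in wildtype males, which matters for any rescaling to a common total. All 9 neutrophil markers examined were at least 2-fold lower in both the female and the SryHi male library than in the wildtype male library. Of all genes, 2.77% were so in females and 4.14% in SryHi males. In the female pair Mpo (0.659 and 4.61 FPKM) and Elane (0.549 and 3.38 FPKM) averaged 1 FPKM only through wildtype males. The same held for Elane in the SryHi pair, at 0 and 3.38 FPKM.

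Of the 92 genes, 87 averaged 1 FPKM or more in both pairs of libraries and are called measured. The other 5 are isoforms of restricted tissues, Cox7a1, Cox7b2, Cox8b, Cox8c and Ndufa4l2, of which Cox7b2 and Cox8c were at 0 in every library. Compared per length, the measured genes stood well above the typical gene of the node. Their median was 38.7 FPKM in females, 29.7 FPKM in SryHi males and 36.1 FPKM in wildtype males, against medians over all measured genes of 9.89, 9.67 and 9.86 FPKM. Summed over all 92 genes the level was 3865 FPKM in females, 3394 FPKM in SryHi males and 3888 FPKM in wildtype males. This sum was 1.10%, 0.921% and 1.05% of the FPKM of all protein-coding genes in those libraries. Without the protein genes of the mitochondrial genome it was 1.17%, 1.01% and 1.20%. The SryHi male library held the lowest share by both measures. Which of the female and wildtype male shares was the higher depended on the mitochondrial genes, whose levels are uncertain, as described below.

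Promoters of these genes are known for binding sites of the nuclear respiratory factor NRF1, of the ETS factor GABPA and of YY1. RefSeq start sites on GRCm38.p6 were found for 73 of the 92 genes and missed for 19, giving 78 promoters of 250 bases before and 50 bases after the start. The NRF1 letters, taken as GCGCA followed at once by its reverse complement TGCGC, which read the same on both strands, were in 7 of the 78 promoters (8.97%), against 0.971% of all 32851 promoters of the same length. With 1 base left open, as GCGCA, any base and GCGC on either strand, a form that includes the first, they were in 20 promoters (25.6%), against 4.60% of all promoters. The ETS letters CCGGAAG were in 17 (21.8%), against 8.86%, and the YY1 letters AAGATGGC in 9 (11.5%), against 2.75%, on either strand. The ETS and YY1 letters can share the bases AAG. The GC box GGGCGG was in 42.3% of these promoters, against 35.7% of all.

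The following promoters are shown because they belong to the gene with the lowest ratio in SryHi males (Ndufb6), to one of the genes with the highest (Ndufs6), and to a pair of highly expressed genes with the full NRF1 letters (Cox6a1 and Atp5g2). All lie on the minus strand, at chr4:40279372-40279671, chr13:73328433-73328732, chr5:115348909-115349208 and chr15:102670998-102671297 of GRCm38.p6. They are written 5′ to 3′ on the strand of the gene, and capitals mark matches to the NRF1 letters, open or full, and to the ETS and YY1 letters.
Ndufb6: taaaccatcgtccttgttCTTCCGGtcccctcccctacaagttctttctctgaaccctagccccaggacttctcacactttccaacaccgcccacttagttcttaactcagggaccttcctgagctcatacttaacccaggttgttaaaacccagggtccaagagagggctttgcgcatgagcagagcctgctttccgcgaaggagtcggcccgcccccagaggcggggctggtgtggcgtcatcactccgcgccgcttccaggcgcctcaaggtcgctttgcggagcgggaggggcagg
Ndufs6: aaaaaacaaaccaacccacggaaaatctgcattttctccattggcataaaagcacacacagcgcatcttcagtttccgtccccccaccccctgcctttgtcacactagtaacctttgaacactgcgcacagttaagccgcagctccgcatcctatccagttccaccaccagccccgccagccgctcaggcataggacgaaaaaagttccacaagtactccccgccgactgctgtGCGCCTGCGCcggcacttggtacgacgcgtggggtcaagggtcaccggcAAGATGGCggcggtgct
Cox6a1: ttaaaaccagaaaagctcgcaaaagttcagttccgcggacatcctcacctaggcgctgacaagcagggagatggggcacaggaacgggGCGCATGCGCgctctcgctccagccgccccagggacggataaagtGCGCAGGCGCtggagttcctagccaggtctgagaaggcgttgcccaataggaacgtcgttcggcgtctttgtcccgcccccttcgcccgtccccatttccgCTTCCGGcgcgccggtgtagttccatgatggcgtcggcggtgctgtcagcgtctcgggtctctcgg
Atp5g2: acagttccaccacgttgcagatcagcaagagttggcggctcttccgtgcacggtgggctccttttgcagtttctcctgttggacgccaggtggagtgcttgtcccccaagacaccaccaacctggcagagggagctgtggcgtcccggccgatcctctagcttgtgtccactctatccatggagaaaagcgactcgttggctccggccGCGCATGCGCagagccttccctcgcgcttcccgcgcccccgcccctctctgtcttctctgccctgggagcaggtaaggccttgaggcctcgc
Of the letters in capitals Ndufb6 has only those of ETS, far upstream of the start. Ndufs6 has the open NRF1 letters just before the start and YY1 letters after it. Cox6a1 holds NRF1 letters at 2 places and ETS letters close to the start, and Atp5g2 holds the full NRF1 letters once.

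**Figure D1:**
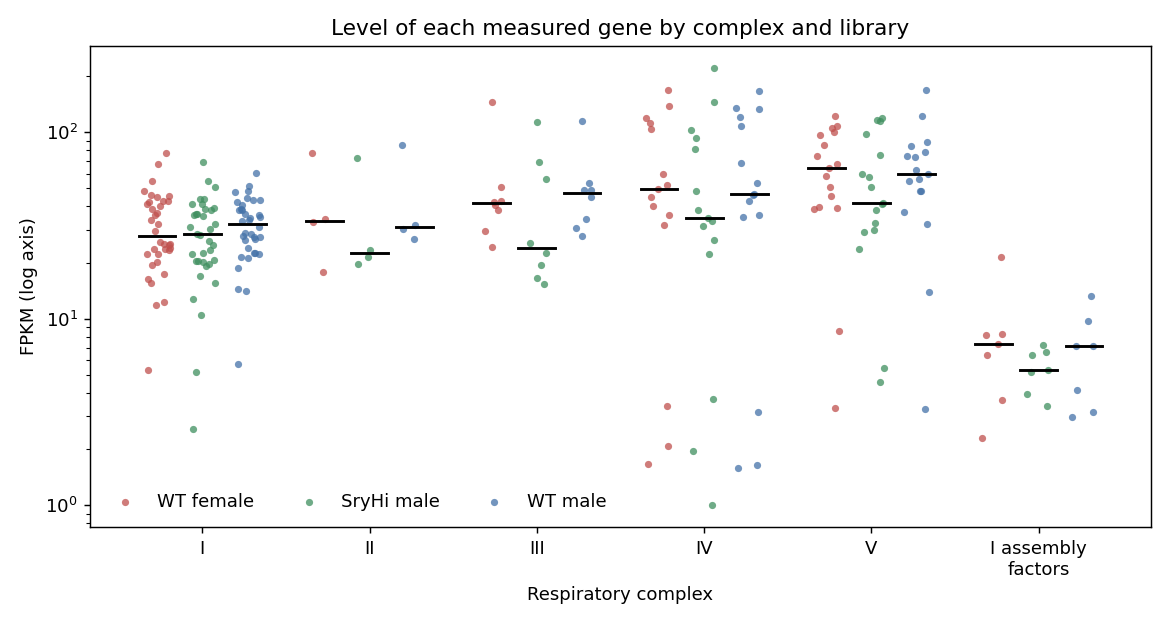
Each point is the level of 1 measured gene in FPKM, on a log axis, by complex, with the wildtype female library left, the SryHi male library in the middle and the wildtype male library right; black bars are medians over the measured genes. The complexes overlap widely in level, and the complex I assembly factors, at 7.32, 5.31 and 7.10 FPKM, have medians below those of the subunits.

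The highest levels per length were those of single genes of complexes III, IV and V. Cox6c, a small subunit of complex IV, had the highest level of all members in females and SryHi males, with 168 FPKM in females, 221 FPKM in SryHi males and 165 FPKM in wildtype males. In wildtype males Atp5b, the catalytic beta subunit of the ATP synthase, was slightly above it, with 122 FPKM in females, 114 FPKM in SryHi males and 169 FPKM in wildtype males. Uqcrh, the hinge protein of complex III, was the highest gene of that complex in every library, with 145, 114 and 115 FPKM in the female, SryHi male and wildtype male libraries. Sdha, the flavoprotein that oxidizes succinate, was the highest of complex II with 77.3, 72.9 and 85.7 FPKM. Apart from isoforms of restricted tissues, the low end included Ndufa11, an accessory subunit of complex I, with 5.34, 2.55 and 5.70 FPKM, and Ndufaf6 and Ndufaf7, assembly factors that are not part of the finished complex. Ndufaf6 had 2.28 FPKM in females, 3.95 FPKM in SryHi males and 2.98 FPKM in wildtype males, and Ndufaf7 had 3.68, 3.42 and 3.15 FPKM.

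The first comparison was between wildtype females and wildtype males. The oxidative phosphorylation genes had nearly the same levels in both libraries. The median ratio over the 87 genes was -0.01, with quartiles of -0.18 and 0.19, and that over all 15523 measured genes was 0.01. Of the 87 genes, 45 (51.7%) had a ratio below 0, against 48.7% of all genes. No member was 2-fold lower or 2-fold higher in females, against 2.77% of all genes that were lower and 2.83% that were higher. Counted on FPKM with nothing added, 1 member, Cox6a2, was 2-fold higher, against 4.81% of all genes. At 1.5-fold, 3 members were lower, against 7.87% of all genes, and 2 were higher, against 7.88%. The spread of the members was also smaller, with an interquartile range of 0.38 against 0.48 for all measured genes. Among genes that averaged 10 FPKM or more it was 0.37 for 76 members and 0.41 for all 7765 genes.

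The largest differences in that comparison were in genes of different complexes. Ndufa8, an accessory subunit of complex I, had 12.3 FPKM in females, against 22.4 FPKM in wildtype males, a ratio of -0.81, and 25.9 FPKM in SryHi males. Atp5g1, one of the genes that encode the same c subunit of the ATP synthase rotor, had 8.63 FPKM in females, against 13.9 FPKM in wildtype males, a ratio of -0.63. Cox6a1, the widely expressed form of that complex IV subunit, had 45.2 FPKM in females, against 68.5 FPKM in wildtype males, a ratio of -0.59. The pair on the other side were Ndufaf3, an assembly factor of complex I, with 21.5 FPKM in females, against 13.2 FPKM in wildtype males and a ratio of 0.66, and Cox6a2. Just inside the 1.5-fold limit lay Sdhc, a membrane anchor of complex II, with 17.9 FPKM in females, against 26.9 FPKM in wildtype males, Ndufs5 with 23.8 and 35.2 FPKM, and Cox5a with 31.7 and 46.4 FPKM, in the same order.

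By complex, the median ratio of females over wildtype males was -0.07 for the 36 complex I subunits, -0.02 for the 4 of complex II, -0.06 for the 8 of complex III, 0.00 for the 15 measured genes of complex IV and 0.06 for the 17 named for complex V, among them Atp5s and Atp5sl, which are not part of its head, stalk or membrane ring. The 7 complex I assembly factors had a median of 0.18, with 5 above 0. Within complex V the 5 subunits of the soluble F1 head had a median of -0.21, and the 10 subunits of the stalk and membrane part had one of 0.12. Atp5b and Atp5d of the head had ratios of -0.46 and -0.44, while Atp5c1, the central shaft, had 0.19. The plot of ratios by complex shows these groups around 0 with no complex set apart from the rest. The X chromosome carries 3 of the measured genes. Ndufa1 had 45.0, 69.0 and 48.6 FPKM in the female, SryHi male and wildtype male libraries, Ndufb11 had 54.9, 36.4 and 40.9 FPKM, and Cox7b had 49.3, 31.3 and 42.7 FPKM. Their ratios of females over wildtype males were -0.11, 0.42 and 0.20, so they did not differ in 1 direction, and each was below 1.5-fold.

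Within the complexes, other genes at the ends of the female comparison lay between 1.5-fold and no difference. In complex I, Ndufa6 had 67.5 FPKM in females, against 51.3 FPKM in wildtype males, a ratio of 0.39, and Ndufa3 had 77.4 and 60.1 FPKM in the same order, a ratio of 0.36. Ndufab1, the mitochondrial acyl carrier protein, had 19.4 and 27.6 FPKM, a ratio of -0.49. In complex III the ratio was 0.34 for Uqcrh and 0.24 for Uqcr10, which had 40.7 FPKM in females, against 34.4 FPKM in wildtype males. In complex IV, Ndufa4 had 59.5 FPKM in females, against 45.9 FPKM in wildtype males, a ratio of 0.37, while Cox8a had 119 and 135 FPKM, a ratio of -0.18. In complex V the stalk subunit Atp5f1 had 99.7 FPKM in females, against 78.7 FPKM in wildtype males, a ratio of 0.34, and Atp5h, also of the stalk, had 108 and 89.0 FPKM, a ratio of 0.28. Genes on either side were thus found in each of these complexes.

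**Figure D2:**
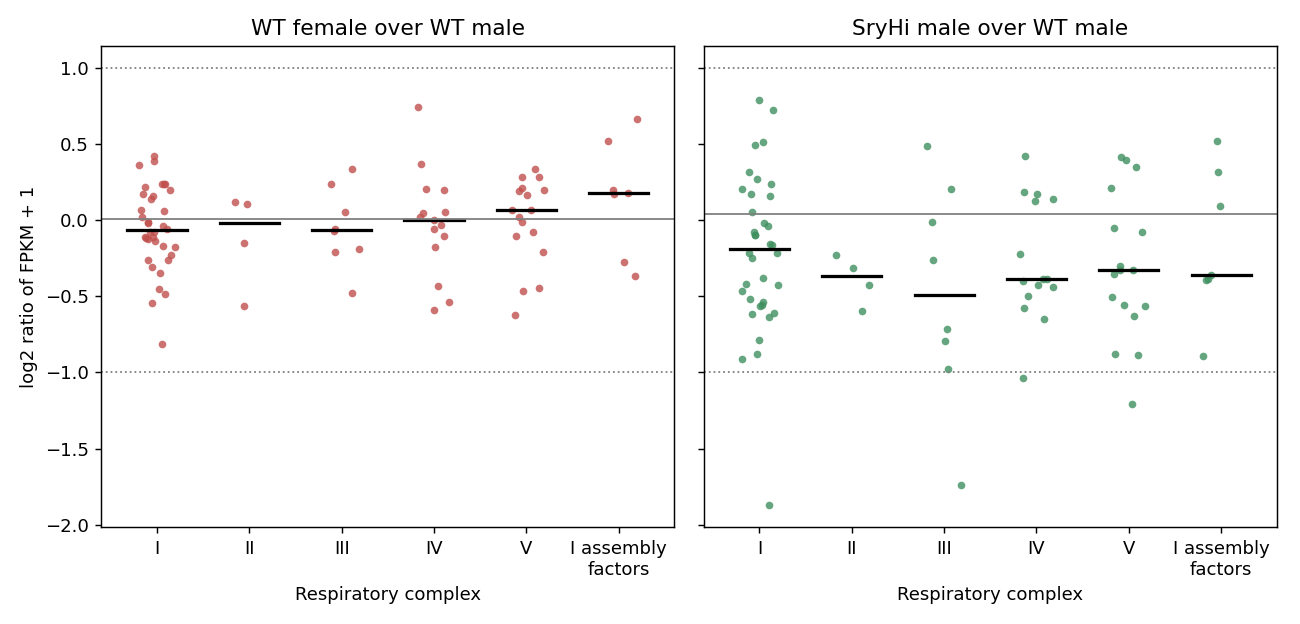
Each point is the log2 ratio of FPKM + 1 of 1 measured gene, for wildtype females over wildtype males (left) and SryHi males over wildtype males (right), by complex; black bars are medians of a complex, the grey line is the median of all measured genes and dotted lines mark 2-fold. In females all points lie inside the 2-fold lines, and in SryHi males every complex has its median below that of all genes, with 4 genes under the lower line.

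The second comparison was between SryHi males and wildtype males. Here the oxidative phosphorylation genes were lower than other genes of the same libraries as a group. Their median ratio was -0.33, with quartiles of -0.56 and 0.13, while the median over all 15566 measured genes was 0.04. Of the 87 genes, 62 (71.3%) were below 0, against 46.6% of all genes. At 1.5-fold, 19 (21.8%) were lower, against 10.7% of all genes, and 2 (2.30%) were higher, against 12.0%. At 2-fold, counted on FPKM + 1, 4 (4.60%) were lower, which is near the 4.14% of all genes, and 0 were higher, against 3.70%. Counted on FPKM with nothing added, a choice made after seeing the data, 6 were lower, against 6.36% of all genes, and 0 were higher. The difference of the group was thus a modest shift of many genes. Across the 3 libraries, the SryHi male library held the lowest value for 55 of the 87 genes, the female library for 18 and the wildtype male library for 14. The same count over all genes is not given here, so these numbers are not read as a result about the members.

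The size of that shift depended on the weight of the 1 added to each value, on the filter and on the genes used for comparison. When each library was rescaled to TPM, which gives all libraries the same sum, the median of all genes moved to 1.37 in SryHi males over wildtype males, with Ighj1 and Ighj4 taking the smaller share in SryHi males given above. On that scale 62 of 85 measured members counted as 2-fold higher and 0 as lower. The median of all genes was itself past 2-fold there, so these counts show nothing particular to the members. Relative to the median of all genes, the median of the members was -0.16. Rescaling multiplies every value of a library by the same number. The gap between members and all genes therefore moved only because the added 1 and the filter at 1 were kept on the new scale. The value of -0.16 is thus not an effect of the scaling alone. In females over wildtype males the same rescaling moved the median of all genes to -0.19. Counts for SryHi males are on the FPKM scale as deposited, on which the median of all genes is near 0, and directions are relative to all genes.

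Transcript length moved with the ratio in SryHi males. Most of these genes are short, with a median transcript of 751.5 nt against 2810 nt for measured protein-coding genes. Among other protein-coding genes the median ratio of SryHi males over wildtype males was -0.38 under 500 nt, -0.13 at 500 to 800 nt, -0.06 at 800 to 1500 nt, 0.00 at 1500 to 3000 nt and 0.08 at 3000 nt or more. The members of these classes had medians of -0.59 for 10 genes, -0.31 for 34, -0.31 for 26, -0.08 for 15 and -0.35 for 2. In each class the median of the members lay below that of other genes of like length, and in the classes under 3000 nt the gap was smaller than that to all genes. Of protein-coding genes of 300 to 1000 nt, members among them, 61.4% were below 0 and 10.1% were at least 2-fold lower. Over the 87 members of any length the shares were 71.3% and 4.60%. These sets are not matched, since 53 of the measured members are under 1000 nt. Spearman's rho between ratio and length, given as a description, was 0.19 over the 87 members and 0.16 over protein-coding genes, all from the same pair of libraries. In females over wildtype males the values were 0.01 and 0.00, and of protein-coding genes of 300 to 1000 nt 50.4% were below 0 and 4.74% at least 2-fold lower. The part of transcript length in the lower ratios of SryHi males was not tested.

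**Figure D3:**
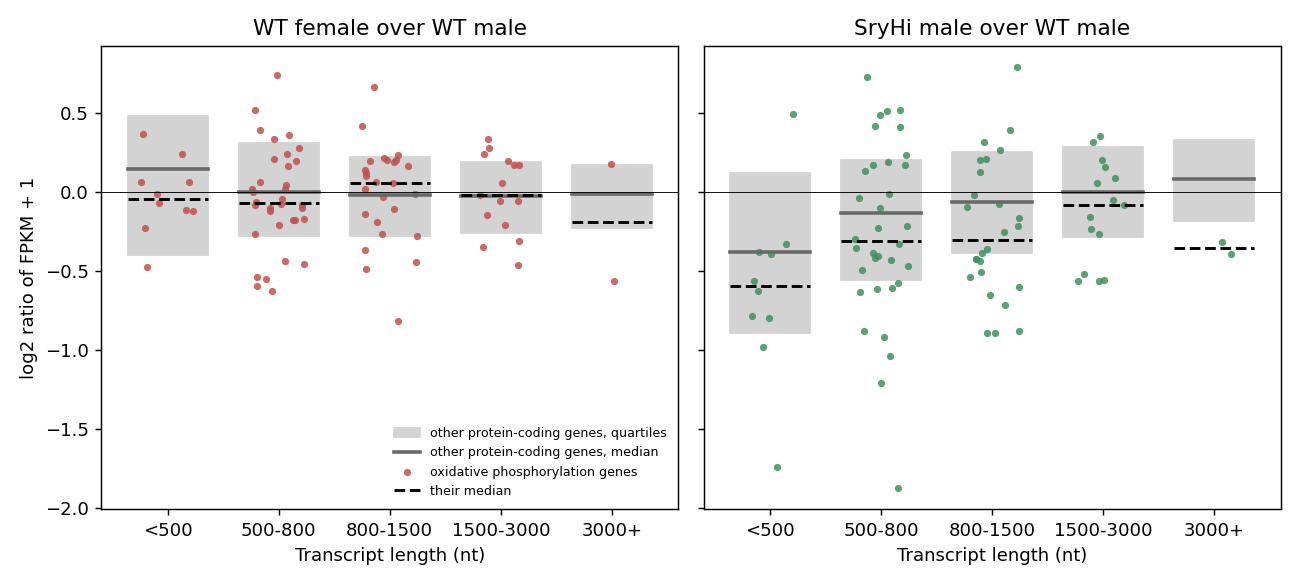
Log2 ratios of FPKM + 1 by class of transcript length in nt, for wildtype females (left) and SryHi males (right) over wildtype males; points are oxidative phosphorylation genes with their median dashed, and grey boxes and bars are the quartiles and median of other protein-coding genes. In SryHi males the grey medians go down from 0.08 in the longest class to -0.38 in the shortest, and the dashed medians lie below them in all 5 classes.

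The 4 genes at least 2-fold lower in SryHi males came from complexes I, III, IV and V. Ndufb6, an accessory subunit in the membrane arm of complex I, had 5.16 FPKM in SryHi males and 21.5 FPKM in wildtype males, a ratio of -1.87, and 15.5 FPKM in females. Uqcrq, a small subunit of complex III, had 15.4 FPKM in SryHi males and 53.7 FPKM in wildtype males, a ratio of -1.74, and 38.3 FPKM in females. For both genes the female library lay between the other libraries. Atp5g1 had 5.44 FPKM in SryHi males and 13.9 FPKM in wildtype males, a ratio of -1.21. Cox5a, one of the first nuclear subunits to join the core of complex IV, had 22.2 FPKM in SryHi males and 46.4 FPKM in wildtype males, a ratio of -1.03. All 4 genes were also lower in females than in wildtype males, with ratios of -0.45 for Ndufb6, -0.48 for Uqcrq, -0.63 for Atp5g1 and -0.54 for Cox5a, so wildtype males held their highest value. The genes were picked by their ratio to the same wildtype male library. That choice favours genes with a high wildtype male value, so the female ratios are no separate support. The levels of these 4 genes rest on few fragments. The FPKM of 1 fragment, read from the steps of low values, differed between long and short transcripts, so each number is given as a range. Ndufb6 had about 11 to 18 fragments in SryHi males and 53 to 85 in wildtype males, and Uqcrq 21 to 33 in SryHi males and 82 to 129 in wildtype males. Atp5g1 had about 13 to 20 in SryHi males and 36 to 57 in wildtype males, and Cox5a 48 to 76 in SryHi males and 113 to 178 in wildtype males. Exons of Ndufb6 overlap Smim27 by 257 nt and exons of Cox5a overlap Gm26631 by 269 nt, both on the opposite strand, and whether the authors' estimates used the strand is not given in the sources used here.

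Past 2-fold in FPKM itself, but short of it with 1 added to each value, were 2 further genes. Uqcr11 of complex III had 22.4 FPKM in SryHi males and 45.0 FPKM in wildtype males and a ratio of -0.98. Ndufa11 had 2.55 FPKM in SryHi males and 5.70 FPKM in wildtype males and a ratio of -0.91. Next were Ndufaf3 at -0.89, with 6.64 FPKM in SryHi males against 13.2 FPKM in wildtype males, and Atp5j2, the f subunit in the membrane part of the ATP synthase, also at -0.89, with 29.7 FPKM in SryHi males against 55.9 FPKM in wildtype males. Unlike the 4 genes above, Ndufaf3 and Atp5j2 were higher in females than in wildtype males, at 21.5 and 64.3 FPKM.

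On the higher side 2 genes passed 1.5-fold. Ndufa12, an accessory subunit that takes the place of the assembly factor Ndufaf2 late in the assembly of complex I, had 39.2 FPKM in SryHi males and 22.3 FPKM in wildtype males, a ratio of 0.79, and 23.3 FPKM in females. Ndufs6, a small zinc-binding subunit of complex I that is also added late, had 35.7 FPKM in SryHi males and 21.2 FPKM in wildtype males, a ratio of 0.72, and 20.1 FPKM in females. For both, the SryHi male library stood alone and the female and wildtype male libraries were close. Ndufaf2 had 6.38 FPKM in SryHi males and 4.15 FPKM in wildtype males, a ratio of 0.52, and it was as high in females, at 6.38 FPKM. Ndufs5, Ndufa1, Uqcrb, Cox6c and Atp5h followed with ratios of 0.51, 0.50, 0.49, 0.42 and 0.41. Complex I thus held both the lowest and the highest ratios of all members.

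**Figure D4:**
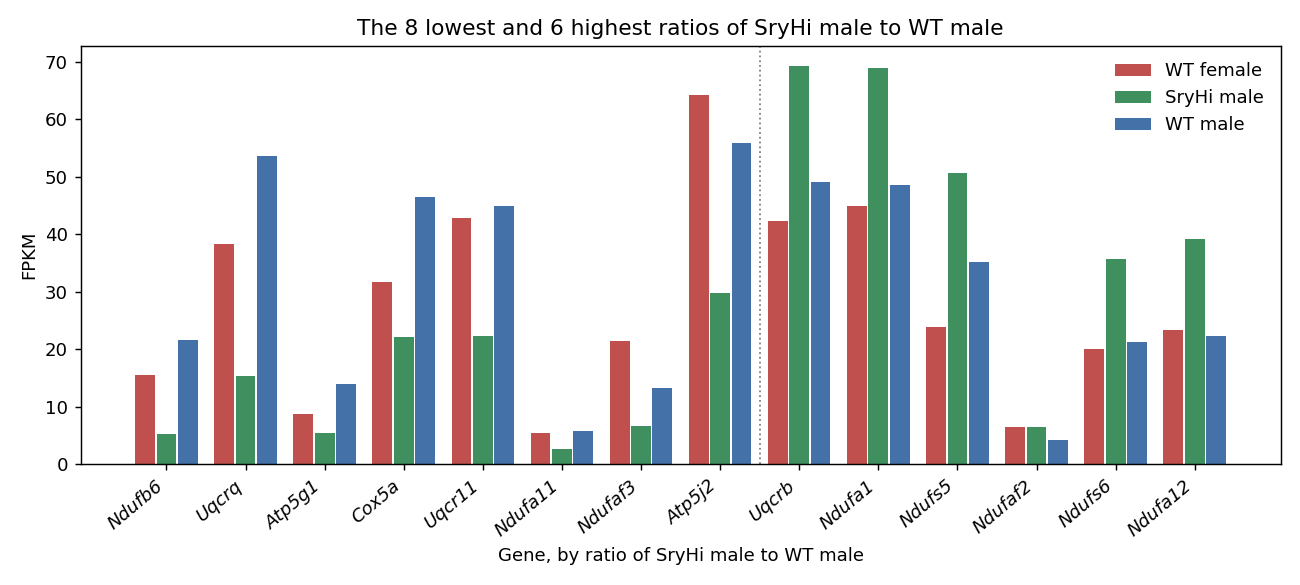
Levels in FPKM of the genes with the 8 lowest and the 6 highest ratios of SryHi males over wildtype males, ordered by that ratio, with a bar each for the wildtype female, SryHi male and wildtype male library. For the 8 genes left of the dotted line the SryHi male bar is the shortest, from Ndufb6 at 5.16 FPKM to Atp5j2 at 29.7 FPKM, and for Ndufa12 it reaches 39.2 FPKM against 22.3 FPKM in wildtype males.

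By role, complex I differed within itself. Its 7 core subunits, which carry the flavin and iron-sulfur clusters and are kept from bacteria to mammals, had a median ratio of -0.04 in SryHi males over wildtype males, with 4 below 0. Ndufs1, which holds several iron-sulfur clusters, had 54.4 FPKM in SryHi males and 43.5 FPKM in wildtype males, a ratio of 0.32. The 29 accessory subunits had a median of -0.21, with 21 below 0 and 7 at least 1.5-fold lower. Besides Ndufb6 and Ndufa11, these were Ndufb8 at -0.88, Ndufc1 at -0.78, Ndufa3 at -0.63, Ndufa2 at -0.62 and Ndufa7 at -0.61. The assembly factors had a median of -0.36, with 4 of 7 below 0. Ndufaf1 had 7.32 FPKM in females, 7.23 FPKM in SryHi males and 9.75 FPKM in wildtype males, Ndufaf4 had 8.17, 5.17 and 7.10 FPKM, and Ndufaf5 had 8.28, 5.31 and 7.10 FPKM.

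All 4 subunits of complex II, the succinate dehydrogenase of the tricarboxylic acid cycle, were below 0, with a median of -0.37. Sdhd, a membrane anchor, had the lowest ratio, -0.60, with 19.6 FPKM in SryHi males and 30.1 FPKM in wildtype males, and the iron-sulfur subunit Sdhb had 23.3 and 31.6 FPKM in the same order. Complex III had the lowest median, -0.49, with 6 of 8 below 0 and the small subunits Uqcrq, Uqcr11 and Uqcr10 at the low end. The Rieske iron-sulfur protein Uqcrfs1 had 16.5 FPKM in SryHi males and 27.8 FPKM in wildtype males, a ratio of -0.72. The core proteins Uqcrc1 and Uqcrc2 had ratios of -0.26 and 0.20, and Uqcrb had 69.3 FPKM in SryHi males against 49.1 FPKM in wildtype males. The same complex therefore held genes on both sides.

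In complex IV the 10 widely expressed subunits had a median ratio of -0.43 in SryHi males over wildtype males, with 8 below 0. Cox4i1, which binds regulatory nucleotides, had 80.8 FPKM in SryHi males and 121 FPKM in wildtype males, a ratio of -0.58, and Cox5b had 33.5 and 53.1 FPKM and a ratio of -0.65. Cox6c and Cox7c were the members above 0, at 0.42 and 0.14. Of 2 genes placed with complex IV by function, Ndufa4 had 34.8 FPKM in SryHi males and 45.9 FPKM in wildtype males, and Cox7a2l, which takes part in joining complexes III and IV, had 144 and 132 FPKM.

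In complex V 13 of 17 genes were below 0, with a median of -0.33. The F1 head had a median of -0.56, set by Atp5d at -0.88 (29.2 FPKM in SryHi males and 54.4 FPKM in wildtype males), Atp5b at -0.56 and Atp5e at -0.56, while Atp5a1, the alpha subunit, was at -0.08 and Atp5c1 at 0.21. Of the stalk and membrane subunits 9 of 10 were below 0, and the exception was Atp5h at 0.41, with 119 FPKM in SryHi males and 89.0 FPKM in wildtype males. Of the genes for the c subunit, Atp5g2 had 59.4 FPKM in SryHi males and 74.9 FPKM in wildtype males, and Atp5g3 had 50.6 and 62.4 FPKM. Both were far above Atp5g1 and nearer to 0 in ratio, at -0.33 and -0.30.

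Isoforms of restricted tissues were near the limit of detection. Cox6a2, the heart and skeletal muscle form of Cox6a, had 3.41 FPKM in females, 0.999 FPKM in SryHi males and 1.64 FPKM in wildtype males, which is about 6.9 to 14, 2.3 to 3.6 and 4.2 to 6.6 fragments. Its ratio of females over wildtype males, 0.74, was the highest of all members in that comparison. The summed level of 14 skeletal muscle markers was 40.1, 20.4 and 26.1 FPKM in the female, SryHi male and wildtype male libraries. All 9 measured markers were above 0 in females over wildtype males. Among the 9, Ckm and Myh4 were below 1 FPKM in wildtype males, at 0.770 and 0.985 FPKM. They counted as measured only through the female library, at 2.39 and 1.58 FPKM. Of all 14 markers only Myh1 was below 0 in that comparison, at -0.23, and it was too low to count as measured. None of the 14 was at 0 in females, against 3 in SryHi males and 1 in wildtype males. Their part in the Cox6a2 values was not tested. Cox4i2, a form linked to low oxygen, had 2.08, 3.70 and 3.17 FPKM, and Ndufa4l2, which is known from pericytes, had 0.208, 0.609 and 0.987 FPKM. The summed level of 7 pericyte and smooth muscle markers was 117, 149 and 125 FPKM, and their part in these values was not tested. Cox6b2, known from testis, had 1.67, 1.94 and 1.59 FPKM, while 6 germ cell markers summed to at most 0.186 FPKM in any library. Cox8b, a muscle and brown fat form, had 0.896 FPKM in females and 0.830 FPKM in SryHi males and was at 0 in wildtype males, which is about the value of 1 fragment in a transcript of its length. Cox7a1, another muscle form, had 0.635 FPKM in females and was at 0 in both male libraries. Brown adipocyte markers summed to at most 0.241 FPKM.

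Several of these genes have near-identical copies elsewhere in the genome, to which their fragments may be assigned. At an identity of at least 97% over at least 150 nt, 16 members had 24 such copies, and 15 of the copies were above 1 FPKM in every library. The largest was Gm12338, a copy of Cox7c, at 78.7 FPKM in females, 91.6 FPKM in SryHi males and 76.8 FPKM in wildtype males, above Cox7c itself at 40.2, 38.5 and 34.9 FPKM. The split of fragments between such a gene and its copies is uncertain. When copies were added to their gene, Atp5g1 had 9.08 FPKM in SryHi males and 19.1 FPKM in wildtype males, which is past 2-fold in FPKM itself and just short of it with 1 added to each value. Ndufa12 had a summed 73.4 FPKM in SryHi males and 47.6 FPKM in wildtype males, a ratio of 0.62, Uqcrb had 131 and 85.7 FPKM, a ratio of 0.61, and Ndufs5 had 70.3 and 39.2 FPKM, a ratio of 0.83. Of the 6 highest members in SryHi males, 3 thus have a copy that takes a large part of the sum. Ndufs6, Ndufa1 and Ndufaf2 have none by this measure. In addition, 25 members share at least 50 nt of exon with a gene on the opposite strand and 5 with a gene on the same strand.

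**Figure D5:**
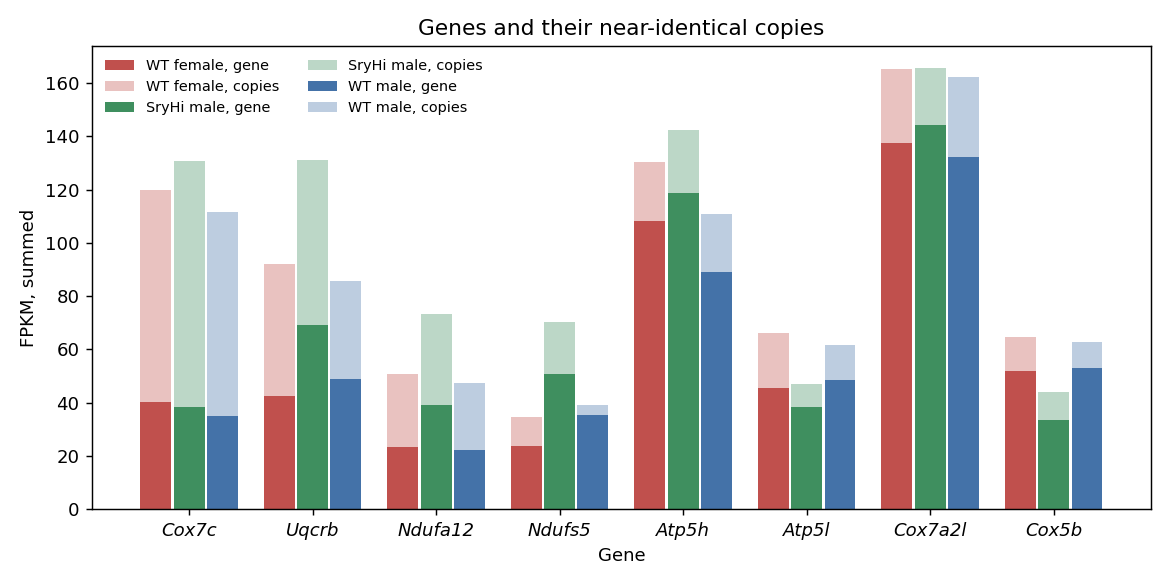
Levels in FPKM of 8 genes (solid) with the summed level of their near-identical copies stacked on top (pale), for the wildtype female, SryHi male and wildtype male library. The copies make up most of the sum for Cox7c, with 79.6 FPKM of 119.8 in females, 92.4 of 130.9 in SryHi males and 76.8 of 111.8 in wildtype males, and in Ndufs5 the copy differs by a larger fold between libraries than the gene.

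Median ratios of genes with and without these promoter letters were compared as a description, and the differences were not tested. In SryHi males they were larger for the open NRF1 and the ETS letters, in opposite directions, than for the full NRF1 or YY1 letters. In SryHi males over wildtype males, the 7 genes with the full NRF1 letters had a median of -0.39, against -0.35 for the 63 measured genes with a promoter and without them. With the open NRF1 letters the median was -0.26 for 19 genes, against -0.39 for 51 without. With ETS letters the median was -0.42 for 17 genes, against -0.30 for 53 without, and with YY1 letters -0.35 for 9 genes, against -0.38 for 61. Of the sequences printed above, Ndufs6 with open NRF1 and YY1 letters had the second highest ratio, and Ndufb6 with ETS letters had the lowest, -1.87. Both were printed because of their ratios, so their places say nothing about the letters. Cox6a1 and Atp5g2 with full NRF1 letters had -0.50 and -0.33. In females over wildtype males the 7 genes with full NRF1 letters had a median of -0.01 and the other 63 one of 0.00. For the GC box the medians in females were 0.06 for 31 genes with it and -0.06 for 39 without. In SryHi males they were -0.39 and -0.36. The genes of the factors themselves were measured in every library. Nrf1 had 35.3, 33.9 and 32.2 FPKM in the female, SryHi male and wildtype male libraries, Gabpa had 21.7, 34.4 and 20.7 FPKM, and Yy1 had 27.7, 29.3 and 30.3 FPKM. Gabpa shares 397 nt of exon with Atp5j on the opposite strand, so its level may not be independent of that member. Over 12 regulators of mitochondrial biogenesis the median ratio in SryHi males was -0.04, with 7 below 0.

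Neighbouring pathways are given beside these genes, and differences between the lists were not tested. The 29 assembly factors of complexes II to V had a median ratio of -0.28, with 21 below 0 and 2 at least 2-fold lower, and the 7 further assembly factors of complex I had 0.08. The pair past 2-fold were Sdhaf4 with 1.89 FPKM in SryHi males and 5.27 FPKM in wildtype males, and Cox14 with 9.39 FPKM in SryHi males and 24.4 FPKM in wildtype males. The 17 glycolytic enzymes had a median of -0.28, with 11 below 0, and the 15 enzymes of the tricarboxylic acid cycle had -0.07, with 8 below 0. In females over wildtype males 13 of these 15 enzymes were below 0, with a median of -0.11, and 13 of the 17 glycolytic enzymes, with a median of -0.10, but none of these genes was 2-fold lower. Cytochrome c1, encoded by Cyc1 and part of complex III, had 12.5 FPKM in SryHi males and 20.5 FPKM in wildtype males, a ratio of -0.67. Atpif1, the inhibitor of the ATP synthase when it runs in reverse, had 149 FPKM in SryHi males and 71.0 FPKM in wildtype males, a ratio of 1.06, and 63.7 FPKM in females.

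The protein genes of the mitochondrial genome, which supply the remaining subunits, differed among themselves in direction. Of the 13 genes, mt-Nd3, mt-Nd4l, mt-Co2, mt-Co3, mt-Atp6 and mt-Atp8 were more than 2-fold lower in both the female and the SryHi male library than in the wildtype male library. For mt-Co2 the values were 44.9 FPKM in females and 74.7 FPKM in SryHi males, against 4563 FPKM in wildtype males. Others went the opposite way, such as mt-Nd1 with 4137 FPKM in females, 7398 FPKM in SryHi males and 3175 FPKM in wildtype males. In SryHi males 5 of the 13 were at least 2-fold higher. At an identity of at least 97% over at least 150 nt, mt-Nd3, mt-Nd4, mt-Nd4l, mt-Co1, mt-Co2, mt-Co3 and mt-Atp6 have copies in the nuclear genome, to which their fragments may be assigned. For mt-Co2 this is Gm28661 on chromosome 1, at 26.1 FPKM in females, 36.2 FPKM in SryHi males and 23.4 FPKM in wildtype males. By this measure mt-Atp8 has no copy, at 75.7 FPKM in females, 134 FPKM in SryHi males and 10306.5 FPKM in wildtype males. Conversely, mt-Nd4 and mt-Co1 have copies and stayed within 2-fold in both comparisons. The levels of the mitochondrial genes are uncertain, and the part of the copies in them was not tested. Their sum enters only the first of the shares of protein-coding FPKM given above, and that share is uncertain for the same reason.

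The make-up of the nodes also differed between libraries, and in whole tissue fewer cells of a type and less RNA per cell cannot be told apart. All 11 T cell markers were above 0 in females over wildtype males, with a median ratio of 0.48, while 10 of 11 were below 0 in SryHi males over wildtype males, with a median of -0.51. Their summed level was 612 FPKM in females, 339 FPKM in SryHi males and 465 FPKM in wildtype males, and none was at 0. Summed adipocyte markers were 141, 263 and 108 FPKM in the female, SryHi male and wildtype male libraries. Of these markers, 8 of the 10 measured in SryHi males were at least 2-fold higher than in wildtype males. Among the 8, Plin4 and Retn were below 1 FPKM in wildtype males, at 0.365 and 0.644 FPKM. They counted as measured only through the SryHi male library, at 2.33 and 3.80 FPKM. The rest of the 8 were above 1 FPKM in both libraries. Summed neutrophil markers were 54.2, 85.3 and 352 FPKM, with Elane at 0 in SryHi males. All 8 measured macrophage markers were below 0 in females over wildtype males, with a median ratio of -0.59, and their median in SryHi males over wildtype males was 0.06. Their summed level was 313, 546 and 541 FPKM in the female, SryHi male and wildtype male libraries. All 6 blood endothelial markers were above 0 in SryHi males over wildtype males, with a median ratio of 0.33, against a median of -0.02 in females over wildtype males, and summed to 157, 207 and 164 FPKM. B cell markers differed little, with median ratios of 0.02 in females and -0.06 in SryHi males. The part of these cell types in the levels of the oxidative phosphorylation genes was not tested.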

How the data were processed

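RNA of whole popliteal lymphnodes was pooled within each group, depleted of ribosomal RNA and made into stranded libraries, which were read as paired ends of 50 bases. HiSat2 was the authors' aligner, and they estimated levels with Cufflinks and Cuffdiff on mm10; versions are not given in the sources used here. The authors deposited FPKM values in 2 Cuffdiff tables of 48808 entries, without counts. The tables also hold the authors' log2 fold change, test statistic, p-value, q-value and call, which were not used.

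Entries of a symbol were summed (231 symbols had more than 1). Ratios were taken as log2 of FPKM plus a pseudocount of 1, where the pair averaged 1 FPKM or more, and were counted at 2-fold and 1.5-fold. With 1 pooled library per group no test was run, and depth, estimated from the steps of low values in transcripts of 3000 to 8000 nt (and of 340 to 380 nt for the lower fragment numbers), is approximate. Gene types, exons and transcript lengths (median of the principal transcripts) came from GENCODE M21, exon overlaps were counted from 50 nt, and copies were found with BLAST 2.17.0. Promoters came from RefSeq on GRCm38.p6. Python 3.11.15, pandas 2.3.3, numpy 2.4.6 and matplotlib 3.10.9 were used, and the ratio step was tested on simulated data. Values in full were meant for members past 2-fold, for the 3 highest and 3 lowest ratios and 2 highest levels of a complex, and for assembly factors, X-linked genes and isoforms of restricted tissues; some of these are given by ratio only, and other genes were chosen after their values were seen. Values of 2 genes are not reported here. The members and lists were chosen with earlier results of these data known. Alternatives changed the pseudocount, the filter, the scaling, the background and the members.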

Additional observations from a re-analysis of the deposited data

How the results depend on the processing

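Relative to the median of all genes, the median ratio of the oxidative phosphorylation genes was -0.03 in females over wildtype males and -0.36 in SryHi males over wildtype males, and 46 and 62 of the 87 genes lay below that median. It was below that of all genes in SryHi males under every alternative run. After TPM scaling, with the same pseudocount and filter kept on the new scale, it was -0.16 (85 genes). It was -0.16 against protein-coding genes of 300 to 1000 nt and -0.19 against genes of the same length class, an alternative chosen after seeing the data. The 4 genes at least 2-fold lower in SryHi males became 2 with a pseudocount of 5 and 0 after TPM scaling. On the TPM scale 62 genes counted as 2-fold higher, but the median of all genes was itself past 2-fold. The share of all genes is not given here for these settings, so the counts are not read as results about the members. With a pseudocount of 0.1, and with none, an alternative chosen after seeing the data, 6 genes counted as 2-fold lower in SryHi males, where 6.01% and 6.36% of all genes did, and 1 gene as 2-fold higher in females. The other 112 values of these summaries stayed within 0.1 of the main value, or within 1.5 times for counts. For single genes and complexes 99 values moved further and 555 did not. In females over wildtype males the median of all members came to 0.01 once copies were added, and 7 values of genes and complexes changed sign, 1 of them Uqcr11 with its copy. No sign changed in SryHi males. Adding near-identical copies or leaving out their genes was also chosen after seeing the data. No paired analysis was possible because each group was 1 library. With 1 pool per group, differences between mice cannot be told apart from differences between groups, and genes of few fragments carry large counting error.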
